A study of Oncorhynchus mykiss with 18 samples.

Results

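The miR-462 and miR-731 cluster is a pair of neighbouring microRNA (miRNA) genes known from bony fish. Its members were taken as every entry of the count table whose name starts with ssa-miR-462 or ssa-miR-731, where ssa marks a name borrowed from Atlantic salmon. There were 2 such entries, ssa-miR-462a-5p and ssa-miR-462b-5p (miR-462a-5p and miR-462b-5p below), among 212 miRNAs with a known name and 4884 entries in all. Both are 5p arms, the strand cut from the 5′ side of the hairpin. No entry was named for miR-731, which is not analysed here.

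The libraries came from rainbow trout (Oncorhynchus mykiss) and the water of their tanks. Small RNA was sequenced from blood plasma, from mucus scraped off the skin, and from the material that a filter held back from tank water. Control plasma and mucus came from fish sampled without the air exposure. Control water was drawn after that, from the tank with the remaining fish, into which the net had already been placed. Stressed samples were taken 1 h after those remaining fish had spent 3 min in air. Each of the 6 groups had 3 libraries, 18 in all, each plasma or mucus library coming from 1 fish. For plasma and mucus the control fish were never the stressed fish, while control and stressed water were drawn from the same tank, with fish still in it. Plasma and mucus of 1 replicate number and treatment came from the same fish, and the water from the tank of that number. No genotype, strain or age was used to separate the groups. Each sample type was extracted with its own kit, so sample type and extraction cannot be told apart.

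A miRNA is a short RNA that pairs, mainly through its seed near the 5′ end, with messenger RNAs and lowers their output. miR-462 and miR-731 are the fish counterparts of the mammalian miR-191 and miR-425, which also lie side by side in the genome. The fish cluster is known as a responder to low oxygen in zebrafish and to viral infection and interferon in several fish species. Extracellular miRNAs leave cells in vesicles, bound to proteins or when cells break. How much of the RNA in scraped mucus or on the water filters was still inside cells was not measured.

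The letters of the miRNA are shown because the pair of names hangs on very little sequence. Among the frequent reads listed for the processed plasma libraries, 5 carried the miR-462 seed, and these fell into 2 sequences and shorter forms of them. The longest form of each is printed 5′ to 3′ as a DNA read, with bases 2 to 8, the seed, in capitals.
First miR-462 read: tAACGGAAcccataaagcagctg
Second miR-462 read: tAACGGAAcccataatgcagctg
Both reads were 23 bases long and differed at 1 base, A16T from the first to the second, counted from the 5′ end. The other 3 reads were 21 or 22 bases long and lacked bases only at the 3′ end. All 5 were picked by this seed at bases 2 to 8, so reads with another seed or a shifted 5′ end could not appear. The difference between the 2 printed reads lies outside the seed, the part that is thought to choose targets. The sources used here do not say which read is miR-462a-5p and which is miR-462b-5p. The reads were aligned with 1 mismatch allowed, so some reads of either miRNA may have been counted under the other, and the sum of both is given beside each where it matters.

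Levels are given as CPM, with the counts of known miRNAs of each library scaled to 1000000, since the share of counts with a known name ran from 3.63% to 97.2% among the libraries. Known miRNA counts totalled 315428 to 12858162 per library, and all counts 445067 to 23634159. The library with the largest count total, mucus stressed 1, had the smallest known share. Intervals on shares cover counting error only, as the reads carried no molecular identifiers. The 3 libraries of a group were separate samples, and no pair of them was close enough to be 1 library deposited under both names. One library stood apart for miR-462, mucus control 2, and results that rest on it are given with and without it. The study lists it with far less RNA than the other mucus extracts, and whether that has a part in its values was not tested.

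In plasma, miR-462a-5p was one of the most abundant miRNAs. The control libraries held 64476, 105926 and 44183 CPM, a mean of 71528 ± 31470 (SD, n = 3). The stressed libraries held 71716, 34517 and 57785, a mean of 54673 ± 18794 (SD, n = 3). The groups overlapped, and the miRNA ranked between 3 and 7 among known miRNAs in all 6 plasma libraries. miR-462b-5p was lower, and steadier in CPM, at 15792, 15236 and 13385 in control plasma and 15274, 8733 and 14121 in stressed plasma. Its means were 14804 ± 1260 and 12710 ± 3492 (SD, n = 3 each), and its rank was 11 to 15. With the scaling of the tests below, the SD in control plasma was 20.0% of the mean for miR-462b-5p and 18.1% for miR-462a-5p. In stressed plasma it was 14.7% and 8.33%. Together the members made up 4.33% to 12.1% of known miRNA counts in plasma.

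In mucus both members were low except in 1 library. miR-462a-5p was at 602, 21965 and 1232 CPM in the control libraries, and at 317, 573 and 958 in the stressed ones. miR-462b-5p was at 295, 10856 and 574 in the control libraries, and at 128, 219 and 367 in the stressed ones. The second control library was 17.8-fold above the next highest mucus library for miR-462a-5p and 18.9-fold for miR-462b-5p. The control means, 7933 ± 12156 and 3908 ± 6019 (SD, n = 3 each), therefore describe no library of the group, and without that library they were 917 ± 446 and 434 ± 197 (SD, n = 2 each). The stressed means were 616 ± 323 and 238 ± 121 (SD, n = 3 each). Counts behind the low values were small, from 238 to 1529 for miR-462a-5p in the 5 low libraries against 37964 in the second control library. The sum of both took 0.0445% to 0.181% of known counts in those 5 libraries and 3.28% in the second control library.

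In tank water both members were abundant again. miR-462a-5p was at 26821, 35207 and 39359 CPM in control water and at 21605, 38706 and 28455 in stressed water, with means of 33796 ± 6387 and 29589 ± 8607 (SD, n = 3 each). miR-462b-5p was at 14191, 15577 and 16432 in control water and at 11219, 17836 and 11355 in stressed water, with means of 15400 ± 1131 and 13470 ± 3782 (SD, n = 3 each). The treatments overlapped for both. miR-462a-5p ranked 6 to 8 and miR-462b-5p 11 to 20 among known miRNAs, and their sum was 3.28% to 5.65% of known counts.

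**Figure D1:**
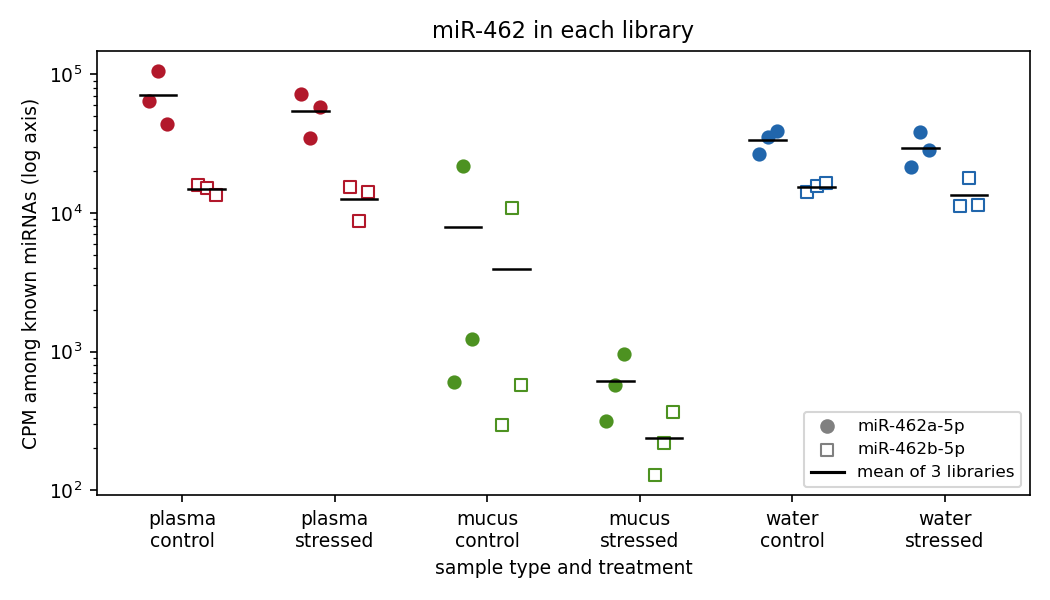
CPM among known miRNAs (log axis) of miR-462a-5p (filled circles) and miR-462b-5p (open squares) in each of the 18 libraries, by sample type and treatment, with black lines for the means of 3 libraries. Plasma and water libraries lie between 8733 and 105926, while all mucus libraries but the second control one lie between 128 and 1232.

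Set in order by median, miR-462a-5p was highest in plasma (61130 CPM), then water (31831), then mucus (780). Plasma and water overlapped, as did water and mucus through the second mucus control library. Plasma and mucus did not overlap, the lowest plasma library standing at 34517 and the highest mucus library at 21965. For miR-462b-5p the medians were 14884 in water, 14678 in plasma and 331 in mucus, with plasma and water overlapping almost wholly. Its mucus libraries lay below all water libraries, by a narrow margin (10856 against 11219), and overlapped with plasma. Of the known miRNAs compared, 31.1% did not overlap between plasma and mucus, 21.5% with plasma higher, and 9.82% between mucus and water, 4.91% with mucus lower. Some overlaps of the members depended on the scaling. With the trimmed mean of M-values scaling of the tests below, miR-462b-5p was at 5556 to 9249 in plasma and 10054 to 14554 in water, without overlap. On that scale the highest mucus library held 15001 of miR-462a-5p and the lowest water library 19363.

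The sample types were compared in 1 fit over the 18 libraries, averaging over treatments, with edgeR's quasi-likelihood test. A miRNA was called where p was at most 0.05, the Benjamini-Hochberg adjusted p was under 0.1 and the log2 fold change was beyond 2 in either direction. Libraries were scaled by trimmed mean of M-values (TMM) factors. As these are bulk RNA samples, fewer cells of a type and less RNA per cell cannot be told apart.

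Both members were higher in plasma than in mucus. The log2 fold change of miR-462a-5p was 4.22 (SE 0.73, edgeR adjusted p = 0.000518) and that of miR-462b-5p was 3.29 (SE 0.72, edgeR adjusted p = 0.00301). Many miRNAs shared this direction, as 51.2% of the 346 tested were called and 32.9% were called higher in plasma, and the median known miRNA was itself at 1.27. Without the second mucus control library the log2 fold changes were 5.84 and 4.92. On the CPM scale, the ratio of plasma to mucus means was 14.8 for miR-462a-5p and 6.64 for miR-462b-5p, and without that library 85.7 and 43.5.

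Both members were lower in mucus than in the water the fish swam in. The log2 fold change of mucus against water was -3.95 (SE 0.72) for miR-462a-5p and -4.02 (SE 0.74) for miR-462b-5p, each with an edgeR adjusted p of 0.00654. Here calls were fewer, 14.7% of the 346 miRNAs tested and 7.23% in the lower direction, and the median known miRNA was at -0.02. Without the second mucus control library the log2 fold changes were -5.31 and -5.40, and the ratio of water to mucus mean CPM went from 7.41 to 43.0 for miR-462a-5p and from 6.96 to 45.6 for miR-462b-5p. In the same fit, with the control groups compared in place of the average over treatments, neither member was called in mucus against water, at -2.27 and -2.18 (edgeR adjusted p = 0.271 and 0.276), and miR-462b-5p was not called in plasma against mucus either, at 1.53 (edgeR adjusted p = 0.236). The second mucus control library is 1 of only 3 in the mucus group of that comparison. With the stressed groups compared, both members were called in mucus against water, at -5.63 and -5.86 (edgeR adjusted p = 0.0119 each). Both were also called in plasma against mucus, at 5.75 and 5.04 (edgeR adjusted p = 0.00189 and 0.00484).

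Plasma and water did not differ past the threshold for either member. The log2 fold change of plasma against water was 0.26 (95% interval -1.098 to 1.63, edgeR adjusted p = 0.819) for miR-462a-5p and -0.73 (95% interval -2.14 to 0.67, edgeR adjusted p = 0.409) for miR-462b-5p. The intervals are wide for both. Of the 346 miRNAs tested in this comparison, 43.9% were called. With a block for the replicate number within treatment, which ties plasma and mucus to 1 fish and water to its tank, 90 miRNAs in place of 177 were called between plasma and mucus, 60 in place of 152 between plasma and water, and 21 in place of 51 between mucus and water. The members were called in the same comparisons with the block as without it.

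Whether the air exposure moved the members was asked within each sample type. Neither was called in any of them. In plasma the log2 fold change of stressed against control was -0.42 (SE 0.33, edgeR adjusted p = 0.993) for miR-462a-5p and -0.26 (SE 0.28, edgeR adjusted p = 0.993) for miR-462b-5p. The 95% interval of the fold was 0.427 to 1.30 for miR-462a-5p and 0.521 to 1.35 for miR-462b-5p. In that comparison edgeR's quasi-likelihood test called 0 of 365 miRNAs, with 18 at an unadjusted p of at most 0.05. The study's form of the edgeR test called 1 there, and DESeq2 called 10.

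In mucus the point estimates were large, with standard errors several times those in plasma and water. The log2 fold change was -3.38 (SE 1.59, edgeR adjusted p = 0.643) for miR-462a-5p and -3.72 (SE 1.63, edgeR adjusted p = 0.643) for miR-462b-5p, where 0.671% of 149 miRNAs were called. Both values rest on the second control library, without which they were -0.75 and -1.04 (edgeR adjusted p = 0.997 and 0.837). The remaining control and stressed libraries overlapped for both members.

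In water the raw counts of both members were higher in the stressed libraries, as were those of all known miRNAs. The raw count of miR-462a-5p was 6.30-, 8.39- and 10.99-fold higher in stressed than in control water in tanks 1, 2 and 3, and that of miR-462b-5p 6.19-, 8.73- and 10.5-fold. The counts of all known miRNAs were 7.82-, 7.63- and 15.2-fold higher in the same tanks. In CPM, stressed water was therefore at 0.806, 1.099 and 0.723 of control water for miR-462a-5p, and at 0.791, 1.15 and 0.691 for miR-462b-5p. Library counts are no measure of the RNA in a volume of water, so only the relative levels were tested. With the tank as a block, the log2 fold change was -0.09 (95% interval -0.65 to 0.48, edgeR adjusted p = 0.788) for miR-462a-5p and -0.10 (95% interval -0.70 to 0.50, edgeR adjusted p = 0.785) for miR-462b-5p, where 1.82% of 165 miRNAs were called. The sign turned when the control or the stressed library of tank 1 was left out, with values up to 0.06 for both members.

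**Figure D2:**
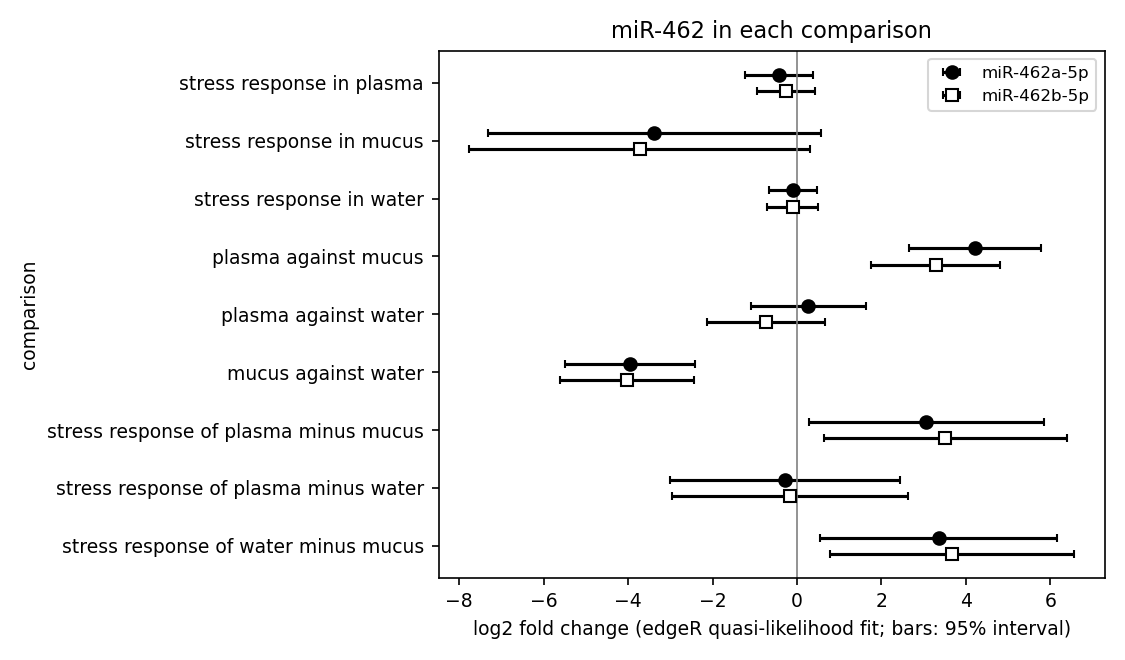
Log2 fold changes of miR-462a-5p (filled circles) and miR-462b-5p (open squares) in the 9 comparisons, from edgeR's quasi-likelihood fits, with 95% intervals, not adjusted for the number of miRNAs tested, as bars and a line at no change. Plasma lies above mucus by 4.22 and 3.29 and mucus below water by values of -3.95 and -4.02, the stress responses of plasma and water lie near the line, and the widest bars are those of the stress response in mucus.

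The stress responses were then set against each other by testing their difference. The response of plasma minus that of mucus was 3.06 on the log2 scale for miR-462a-5p (SE 1.30, edgeR adjusted p = 0.359) and 3.51 for miR-462b-5p (edgeR adjusted p = 0.346). The response of water minus that of mucus was 3.35 (edgeR adjusted p = 0.402) and 3.68 (edgeR adjusted p = 0.369). None passed the adjusted threshold, and without the second mucus control library the 4 values fell to 0.34, 0.81, 0.63 and 0.89. The response of plasma minus that of water was -0.29 for miR-462a-5p and -0.17 for miR-462b-5p, each with an edgeR adjusted p of 1.00. Of 346 miRNAs tested, 1.45%, 0.867% and 0.289% were called for plasma minus mucus, water minus mucus and plasma minus water.

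The balance between the members is a ratio within a library and so does not depend on how libraries are scaled. In control plasma miR-462a-5p made up 80.3%, 87.4% and 76.7% of the counts of both, and in stressed plasma 82.4%, 79.8% and 80.4%. In control mucus the share was 67.1%, 66.9% and 68.2%, and in stressed mucus 71.2%, 72.3% and 72.3%. In control water it was 65.4%, 69.3% and 70.5%, and in stressed water 65.8%, 68.5% and 71.5%.

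Plasma thus held about 4.51 ± 1.28 counts of miR-462a-5p for each count of miR-462b-5p, mucus 2.32 ± 0.28 and water 2.19 ± 0.25 (SD, n = 6 each). The lowest plasma share, 76.7%, was above the highest in mucus, 72.3%, and in water, 71.5%. Mucus and water overlapped. Among pairs of known miRNAs of 1 number and arm with at least 20 counts of each in every library, 10.5% of 19 pairs did not overlap between plasma and mucus, and 23.1% of 26 pairs between plasma and water. Both shares count the pair of members itself, and between plasma and mucus the only other such pair was miR-27a-5p with miR-27b-5p. The second mucus control library, whose miR-462 level came near to that of water and plasma, had a share of 66.9% (exact 95% binomial interval 66.5% to 67.3%), within the range of water and below every plasma library.

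Within sample types the balance varied in other ways. Control and stressed mucus did not overlap. Of the 19 pairs of miRNAs compared there, 2 (10.5%) did not overlap, the members themselves and miR-27a-5p with miR-27b-5p. By exact 95% binomial intervals some of these libraries separated and some did not. The interval was 66.5% to 67.3% in the second control library and 70.3% to 74.2% in the third stressed one, which do not meet. It was 63.8% to 70.3% in the first control library and 66.4% to 75.7% in the first stressed one, which do. In water the share went up from tank 1 to tank 2 to tank 3 under both treatments, and control and stressed water of 1 tank differed by less than any pair of tanks did. The tanks are replicates without an order, so this says only that the shares of 1 tank were alike. Over known miRNAs, deviations from the group mean correlated weakly between control and stressed water of 1 tank (-0.002 to 0.048). In plasma the share ran over the widest range in the control fish, and the treatments overlapped.

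**Figure D3:**
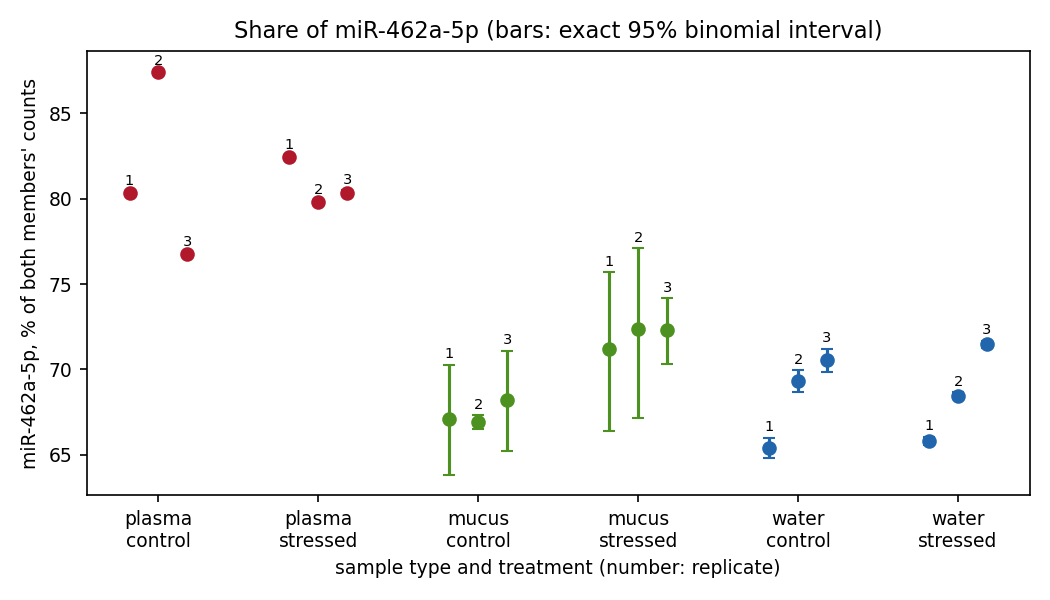
Share of miR-462a-5p in the counts of both members, in percent, for each of the 18 libraries by sample type and treatment, with exact 95% binomial intervals as bars and the replicate number above each point. All 6 plasma libraries lie at or above 76.7%, and all mucus and water libraries at or below 72.3%.

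The sample types were checked against miRNAs that mark tissues. Epithelial miRNAs, known from skin and other epithelia of mammals (the miR-200 family, miR-203, miR-205, and the miR-183, miR-96 and miR-182 cluster, which is also known from sensory cells), had 12 entries. Their summed level was 74446 to 185093 CPM in mucus and 95361 to 139844 in water, against 703 to 47657 in plasma. The miR-183 cluster did not share this order, as miR-183 reached 28369 and miR-182 14715 in a plasma library, against at most 2257 and 1070 in mucus and 6046 and 621 in water. Liver miR-122 was at 220 to 2314 in plasma, 0 to 668 in mucus and 0 to 25.4 in water. The 8 muscle entries (miR-1, miR-133, miR-206 and miR-499) summed to 25.98 to 619 in plasma and were at 0 in all mucus and water libraries. The red blood cell marker miR-144 was at 422 to 3605 in plasma, 4.38 to 418 in mucus and 6.76 to 44.4 in water, while no entry was named for miR-451, the other defining marker of red blood cells. The 6 leukocyte entries summed to 15390 to 52621 in plasma, 2502 to 6939 in mucus and 7499 to 13813 in water. Most of that sum was miR-181 (11401 to 45419 in plasma), while miR-155 was at 7.54 to 59.0 in plasma, 16.8 to 107 in mucus and 44.4 to 178 in water, and no entry was named for miR-223. Of the plasma libraries, plasma control 2 had the highest epithelial, muscle and miR-144 levels, but not the highest miR-122 or leukocyte level. It also had the highest miR-462a-5p level (105926 CPM) and share (87.4%), and whether these go together was not tested. By these lists water resembled mucus in its epithelial, liver and muscle miRNAs, whereas its miR-462 level was near that of plasma.

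The second mucus control library had 12 of 12 epithelial entries and the highest epithelial sum of the mucus libraries, at 185093. It also had the highest leukocyte sum of them, 6939, below every plasma and water library. Its miR-144 was at 85.1, its miR-122 at 3.47 and its muscle entries at 0, each below every plasma library in the summed level. The mucus library with the most miR-144 and miR-122 was the first control one, at 418 and 668, and its miR-462a-5p was at 602. What part leukocytes or epithelial cells have in the miR-462 level of the second control library was not tested.

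**Figure D4:**
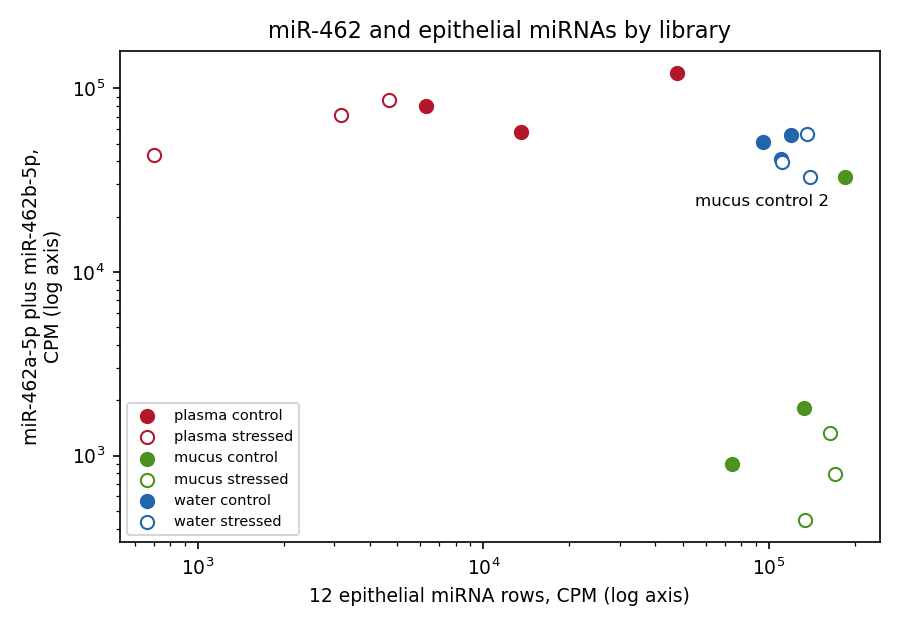
Summed level of miR-462a-5p and miR-462b-5p against the summed level of 12 epithelial miRNA entries, both in CPM and on log axes, for the 18 libraries (filled, control; open, stressed). Water lies beside mucus along the epithelial axis, at 95361 to 139844, and beside plasma along the miR-462 axis, with the second mucus control library next to it and the other 5 mucus libraries far below.

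The place of miR-462 among the other miRNAs was read from mean levels, taking the members as 1 entry of 192 and comparing counts, as mature miRNAs are of nearly 1 length. The other entries were not summed with their relatives. In plasma miR-462 as a sum stood at place 3, with 76858 ± 26845 CPM (SD, n = 6). Above it were miR-100a-5p (220207), a member of a family that in mammals restrains the growth kinase mTOR, and miR-146a-5p (172002), which in mammals dampens inflammatory signalling. Below it were let-7a-5p (73042), of a family that promotes differentiation, and miR-26a-5p (67202), both above the mean of miR-462a-5p alone (63101). In water it stood at place 6, with 46127 ± 9660 (SD, n = 6), below miR-100a-5p (60929) and miR-10b-5p (51929), whose family lies within Hox gene clusters, and above the epithelial miR-203b-3p (34375) and miR-200b-3p (19777). miR-462a-5p alone had a mean of 31692 in water, below miR-203b-3p. In mucus the summed mean of 6348 ± 12978 (SD, n = 6) put miR-462 at place 15. It lay below let-7g-5p and miR-10d-5p and above miR-26b-5p and let-7f-5p, and that mean rests on the second control library. The neighbours let-7g-5p, miR-26b-5p and let-7f-5p also had SDs above their means in mucus, with ranges of 359 to 78640, 0 to 35404 and 0 to 35848. In plasma the range of miR-462 overlapped with those of the neighbours at places 2, 4 and 5, at place 2 barely (121162 against 121112). In water it overlapped with those at places 4, 5 and 7.

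Spearman's rho was taken on levels scaled by TMM, among 123 known miRNAs with a count in at least 9 libraries. It was used to find those whose level followed that of the members most closely over the 18 libraries. They were let-7a-5p (rho 0.74), miR-128-3p (0.71), known as a brain miRNA in mammals, miR-210-5p (0.71), miR-25-3-5p (0.70), which had the same counts as miR-25-5p, and miR-100a-5p (0.66). let-7a-5p had means of 73042 CPM in plasma, 16451 in water and 2586 in mucus, and miR-100a-5p 220207, 60929 and 22439. miR-210-5p, whose family is the best known hypoxia-induced miRNA in mammals, was far rarer, with means of 68.5, 36.4 and 9.34 in plasma, water and mucus. The order plasma, water, mucus was that of miR-462a-5p in each of the 3, which had been picked for following the members over the same libraries. The least alike were miR-152-5p (rho -0.80), miR-148a-5p (-0.78) and miR-148b-3p (-0.75), of 1 family in mammals. miR-148a-5p had means of 942 CPM in mucus, 29.6 in plasma and 74.1 in water.

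These correlations are a description, as the points share sample type, depth and extraction. Within plasma, mucus and water (n = 6 libraries each) rho was -0.03, 0.60 and 0.37 for let-7a-5p, and 0.43, 0.65 and 0.49 for miR-128-3p. For miR-210-5p it was 0.14, 0.17 and -0.09, in the same order. It was -0.20, 0.31 and 0.43 for miR-25-3-5p, and -0.37, 0.31 and 0.26 for miR-100a-5p. The second mucus control library held each of the 5 most alike miRNAs below every plasma library, with let-7a-5p at 5273 CPM against 56070 to 114203 in plasma. The members themselves had a rho of 0.60 with each other over the 18 libraries, 1.00 within mucus, 0.77 within water and 0.26 within plasma (n = 6 each). In mucus both thus ranked the libraries alike. These rho values were taken on levels scaled by TMM. In CPM among known miRNAs the members ordered the plasma libraries more alike, both being lowest in plasma stressed 2 (34517 and 8733). How far they varied together in plasma thus depends on the scaling.

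Other miRNAs that are known for the conditions that move miR-462 were followed as lists. The first list had 13 entries known as hypoxia-responsive (miR-210, miR-21, miR-27, miR-29 and miR-34). The second had 9 known from viral infection and inflammation (miR-21, miR-146, miR-155, miR-181 and miR-142, with no entry named for miR-223). The third had 10 known mostly, but not all only, from fish, and miR-21 was in the first and the second list. None of these entries was called in the stress response of plasma, mucus or water. Calls were rare there for any miRNA. Plasma had 0 among 365 tested, mucus 1 among 149, and water 3 among 165. After the low count filter, mucus had 6, 7 and 2 entries of the 3 lists left to test, and water 10, 8 and 2. The lack of calls thus does not set the lists apart. The median log2 fold changes of the lists in plasma were 0.01, 0.14 and -1.12 over the 11, 8 and 5 entries tested, beside -0.08 over all miRNAs tested.

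Between sample types some of these entries were called. In plasma against mucus, 5 of the 11 hypoxia entries tested were higher and 0 lower, beside 32.9% called higher and 51.2% called at all among the 346 miRNAs. Among the 5 were miR-27c-3p and miR-27c-5p, which had identical counts and so a single log2 fold change of 12.89 (edgeR adjusted p = 0.0312). Of the 8 inflammation entries, miR-142a-5p, a miRNA of blood-forming cells in mammals, was higher in plasma at 9.68 (edgeR adjusted p = 0.000805), and miR-146a-5p was lower at -2.04 (edgeR adjusted p = 0.000294). Of the 4 fish entries tested, miR-2188-5p was higher at 5.998 and miR-725-5p lower at -5.72. The list medians were 0.04, -0.47 and -0.39, below the median of 1.98 over all miRNAs.

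In mucus against water, the comparison in which both members were lower, 0 of 11 hypoxia entries and 0 of 4 fish entries were called, beside 14.7% of all miRNAs tested. Of the 8 inflammation entries, 1 was called, miR-142a-5p at -7.03 (edgeR adjusted p = 0.0197). In plasma against water, 1 hypoxia entry was higher (miR-29a-3p at 8.25) and 1 lower (miR-21a-5p, a miRNA of injury and inflammation in mammals, at -2.36). The inflammation list had 1 higher and 2 lower of 8, the lower ones being miR-21a-5p and miR-155-5p (-2.78), an immune cell miRNA in mammals. The fish list had 2 higher and 1 lower of 4, with miR-2188-5p at 4.67 and miR-725-5p at -5.37. In that comparison 43.9% of all miRNAs tested were called, so counts of this size do not set the lists apart. In the tests of differences between stress responses, 1 entry of the lists was called, miR-142a-5p in plasma minus mucus at 13.39 (edgeR adjusted p = 0.0773). That call rests on the second mucus control library, without which 0 miRNAs were called in this comparison. The summed miR-142 entries were at 0 in all stressed mucus libraries, at 763 CPM in the second control library, and at 0 and 41.4 CPM in the other control ones.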

How the data were processed

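Small RNA libraries of plasma, mucus and water (18, 3 per group) had been trimmed with cutadapt 2.10, aligned by the authors to the Omyk_1.0 rainbow trout genome with Bowtie 1.1.1 (1 mismatch, best alignments) and counted with miRDeep2 within miARma-Seq, using Atlantic salmon names. The authors deposited estimated counts, in which reads of several precursors are averaged, and all values are whole numbers. Deposited tables of the authors' own fold changes and p-values were not used. All 4884 entries were fitted with edgeR 4.0.16 (R 4.3.3) after its default low count filter and TMM scaling, within each sample type for stress (tank as block in water, as in the study) and over all 18 libraries for sample types. p-values set each difference against the spread between these libraries. In the 18-library fit without the replicate block, plasma and mucus of the same fish were entered as independent. Intervals on fold changes come from the same fits. Levels (CPM among known miRNAs) were computed without a test, in Python 3.11.15. Scripts were tested on simulated data. Replicate numbers pair samples only as the study describes (same tank, same fish). Named miRNAs were the members, the 5 most and 3 least alike, the abundance neighbours in each sample type (the 2 above and 2 below), and up to 2 called per list and comparison with the smallest p. Members, lists and rules were chosen with earlier results of these data known. Alternatives were DESeq2 1.42.0, other scalings, filters and blocks, and each library left out.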

Additional observations from a re-analysis of the deposited data

How the results depend on the processing

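The 4 called results, both members in plasma against mucus and in mucus against water, were called with each of the 18 libraries left out. Their log2 fold changes then ran from 4.08 to 5.84 and 3.13 to 4.92 in plasma against mucus (miR-462a-5p, miR-462b-5p), and from -5.31 to -3.55 and -5.40 to -3.62 in mucus against water. Without the low count filter the calls were lost at 4.51, 3.55, -3.98 and -4.04 (edgeR adjusted p = 0.184, 0.932, 0.694 and 1.00). Many more miRNAs entered the adjustment there, and the standard errors were larger as well. They rose from 0.73 to 1.48 and from 0.72 to 1.58 in plasma against mucus (miR-462a-5p, miR-462b-5p). In mucus against water they rose from 0.72 to 1.44 and from 0.74 to 1.62. With the control groups alone compared, in the same fit, miR-462b-5p in plasma against mucus (1.53) and both members in mucus against water (-2.27 and -2.18) were not called, with 3 libraries per type. With the stressed groups alone compared, all 4 were called. Library totals without TMM turned miR-462b-5p in plasma against water from -0.73 to 0.035, as that scaling moved the median known miRNA from 0.56 to 1.44. The stress response of plasma minus water, never called, changed sign for miR-462a-5p with DESeq2 size factors (0.13) and DESeq2 (0.043), and for miR-462b-5p with the same (0.28 and 0.32). With single libraries left out it ran from -1.04 to -0.13 for miR-462a-5p and from -0.75 to 0.023 for miR-462b-5p, the last without plasma control 3. The stress response of water ran from -0.41 to 0.061 for miR-462a-5p and from -0.45 to 0.058 for miR-462b-5p. The causes of these changes were not tested. No alternative made a stress response of a member called.

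The replicate block in the 18-library fit gave 4.82 and 3.90 in plasma against mucus and -4.56 and -4.58 in mucus against water, and changed no call of a member. In water, without the tank block, the members stood at -0.07 and -0.09, and 14 miRNAs in place of 3 were called. In plasma and mucus, where control and stressed samples of a number are different fish, the replicate block gave -0.36 and -0.26, and -1.48 and -1.78, with no call. Same-numbered deviations correlated weakly, at -0.002 to 0.048 in water. Counts of called miRNAs moved by more than 1.5 times under alternatives. Over the alternatives other than leaving a library out, they ran from 57 to 247 in plasma against mucus (177), 31 to 200 in plasma against water (152), 0 to 55 in mucus against water (51), 0 to 21 in the stress response of plasma (0), 0 to 14 in mucus (1) and 0 to 28 in water (3), and from 0 to 29, 15 and 25 in the differences of plasma minus mucus (5), plasma minus water (1) and water minus mucus (3). With 1 library left out, they ran from 120 to 207 in plasma against mucus. They ran from 83 to 168 in plasma against water and 14 to 39 in mucus against water. In the stress responses of plasma, mucus and water they ran from 0 to 1, 0 to 3 and 0 to 0. In the differences they ran from 0 to 6, 0 to 3 and 1 to 4. Leaving a library out also changed which miRNAs passed the low count filter. In plasma against mucus, 556 were tested without mucus control 1, in place of 346. The shares of called miRNAs given beside the members thus depend on the libraries and the miRNAs entered, which were not told apart. In 5 of 6 mucus libraries a member had only 91 to 1529 counts.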
